A study of Mus musculus with 6 samples.

Results

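The genes described here belong to the interferon response: the receptors, the sensors of foreign nucleic acid, the transcription factors and the induced effectors, with the Schlafen genes SLFN5 and SLFN11. A list of 46 gene symbols was matched to the symbol column of the deposited count table, and 45 of them had a row among the 20499 genes listed. RIGI had no row under that symbol. Its older symbol, DDX58, had a row and is described beside the members. After a filter on low reads, 38 of the 45 could be tested, and the 7 others (DHX58, OAS2, MX2, RSAD2, IFI27, XAF1 and RTP4) had between 1 and 24 reads in all 6 libraries together.

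RNA was sequenced in 6 libraries of cells labelled AML12, an immortalized mouse hepatocyte line. The 3 shRNF11 libraries came from cells in which lentivirus lowered RNF11, a ubiquitin ligase gene, and the 3 shControl libraries (genotype WT in the labels) from cells with a control construct. Both groups had been kept for 6 h at 1% oxygen without glucose or serum and then in complete medium in normal air. That medium held 10% serum, an insulin, transferrin and selenium supplement, and dexamethasone at 40 ng/mL, a glucocorticoid that dampens many inflammatory genes. No library without hypoxia and no library treated with interferon was analysed here, and the labels do not say that replicates came from separate cultures, so the p-values may measure technical spread only.

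Depth was 37485850 to 39045440 reads per library. Symbols, Entrez numbers and pathway terms in the table are human although the labels give mouse: 0 of 20499 Entrez numbers occur in the mouse RefSeq table, and genes are therefore named as the table prints them. Hepatocyte markers were almost unread, with 61 reads in all 6 libraries over the 5 listed of 8 markers and no row for ALB. Of 7 leukocyte markers 4 were listed. They summed to 41.6 to 46.5 CPM (a gene's reads per 1000000 reads of the scaled library total) in shRNF11 and 47.7 to 52.8 CPM in shControl libraries, nearly all of it CD68, and PTPRC, the defining gene of leukocytes, had no row. The 6 fibroblast markers summed to 59.2 to 87.5 CPM in shRNF11 and 62.5 to 86.6 CPM in shControl libraries. Of the 5 tested, LUM was 2.37-fold higher (edgeR adjusted p = 3.51e-05) and COL1A2 2.68-fold higher (adjusted p = 0.0114), the second with 16, 207 and 279 reads in shRNF11 and 156, 16 and 19 in shControl libraries, which overlap. The part of these markers in the results below was not tested. The 4 endothelial markers had 631 reads in all 6 libraries, and 0 of them passed in edgeR, where 1 could be tested (CDH5, unadjusted p = 0.228). RNF11 itself had 573, 565 and 599 reads in shRNF11 libraries and 2050, 1926 and 1930 in shControl libraries, which was 3.32-fold lower (edgeR adjusted p = 3.48e-28).

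Interferons are secreted by cells that detect foreign RNA or DNA and act on receptors of the same or neighbouring cells. Type I interferons bind IFNAR1 and IFNAR2, and interferon gamma binds IFNGR1 and IFNGR2. Type I receptors activate a complex that holds STAT2 and IRF9 and binds the promoters of interferon-stimulated genes, while IRF3 can switch on part of the same genes directly after sensing. Many cells also keep a low basal level of these genes without added interferon.

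The interferon genes moved in both directions in shRNF11 cells. Of the 38 tested, 5 were higher (IFNGR1, IRF3, IRF9, OAS1 and IFIT5), 8 were lower (OASL, SLFN5, IFIT2, ISG15, IFIT3, USP18, PARP9 and SLFN11) and 25 did not pass an edgeR adjusted p of 0.05. The share that passed, 34.2%, lay near the 32.1% of all 13489 tested genes. By direction, 13.2% of the members were higher, against 17.4% of all tested genes, and 21.1% were lower, against 14.7%. The role groups below held 2 to 6 tested members each, so their shares rest on few genes. The median log2 fold change was -0.06 over the tested members and -0.0079 over all tested genes. The count of lower members was 5 without shRNF11 replicate 2 or 3 and 5 without shControl replicate 1 or 2, and the count of higher members was 2 without shControl replicate 1 and 3 without shControl replicate 2. With upper-quartile factors 2 members were higher and 8 lower, and with library totals 2 and 11. In bulk RNA, less RNA per cell and fewer cells that express a gene cannot be told apart.

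Among the members that passed, the larger changes were all decreases. OASL, SLFN5, IFIT2 and ISG15 were called and at least 1.5-fold lower, or 10.5% of the members tested. In the other direction 0 members were called and at least 1.5-fold higher. Over all tested genes 2.45% were called and at least 1.5-fold lower, and 1.51% were called and at least 1.5-fold higher. Without passing, ISG20 was 2.31-fold lower and IFI6 1.57-fold higher. Either way, 3.96% of all tested genes were called and changed at least 1.5-fold. With tested genes divided into 5 equal classes by mean CPM, all 4 genes lay in the 2 classes of lowest expression, which held 22 of the 38 members. In those classes 4 of the 22 members were called and at least 1.5-fold lower, against 5.60% of all tested genes there. The libraries of the groups did not overlap for 16 of the 38 members (42.1%, against 42.8% of all tested genes), with shRNF11 above shControl in 7 and below it in 9.

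**Figure D1:**
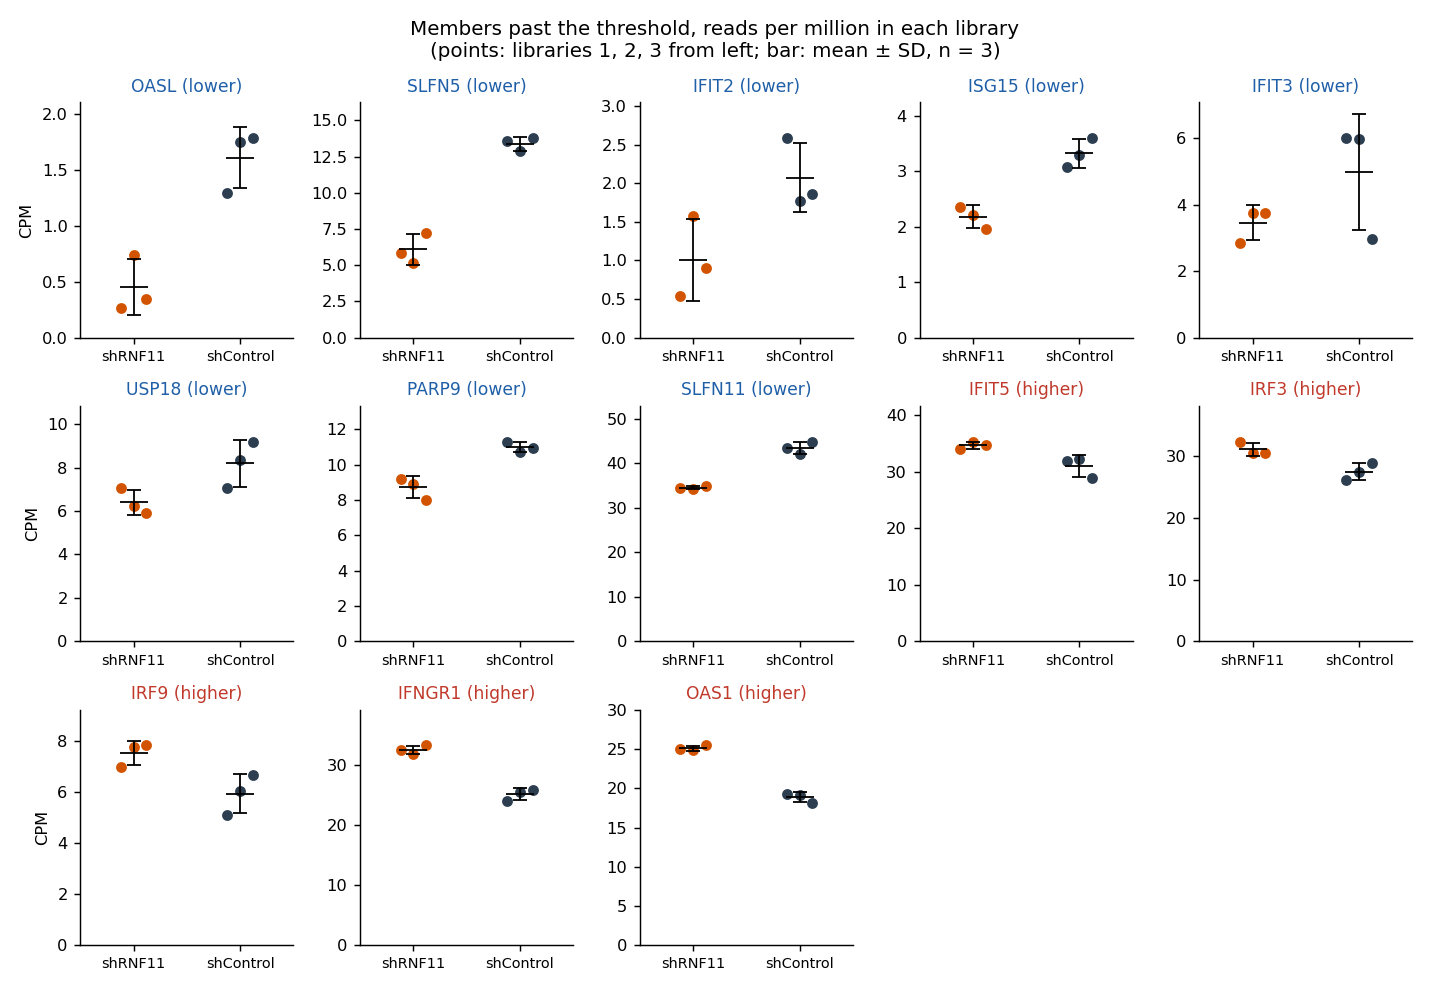
CPM of the 13 members past the threshold in each library, shRNF11 on the left of each panel and shControl on the right, with the mean and SD of 3 libraries. The groups overlap for IFIT3 and USP18 and for no other gene shown, and OASL and SLFN5 show the widest gaps relative to their level.

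Of 17 ligand genes in a list of further pathway genes, 16 had no row and were not analysed here. IFNE, an epithelial type I interferon, averaged 0.504 ± 0.0973 CPM in shRNF11 and 1.01 ± 0.135 CPM in shControl cells (SD, n = 3 each), with all shRNF11 libraries below all shControl libraries, and did not pass the test (edgeR adjusted p = 0.0635).

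Of the 4 receptor chains, IFNGR1 passed (25%, against 32.1% of all tested genes). IFNGR1, the ligand-binding chain of the interferon gamma receptor, stood at 32.4, 31.9 and 33.2 CPM in shRNF11 libraries and at 24.0, 25.5 and 25.8 CPM in shControl libraries. Every shRNF11 library lay above every shControl library. The difference was 1.29-fold (log2 fold change 0.37, SE 0.0645, edgeR adjusted p = 7.48e-06). IFNGR2, the signalling partner of IFNGR1, averaged 34.4 ± 2.54 CPM in shRNF11 and 35.8 ± 0.613 CPM in shControl cells (SD, n = 3 each) and did not pass (log2 fold change -0.06). The type I receptor chains were close to equal: IFNAR1 averaged 56.5 ± 1.20 CPM in shRNF11 and 55.1 ± 0.370 CPM in shControl cells, and IFNAR2 29.3 ± 1.53 CPM in shRNF11 and 29.2 ± 2.03 CPM in shControl cells. Neither passed, with log2 fold changes of 0.04 for IFNAR1 and 0.0058 for IFNAR2, both of which turned negative under scaling by library totals.

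Among the 6 transcription factors, IRF3 and IRF9 were higher and 4 did not pass. That is 33.3% called, against 32.1% of all tested genes, all of them higher, where 17.4% of all tested genes were higher. IRF3, a factor that cells keep in store and activate by phosphorylation, had 32.3, 30.5 and 30.6 CPM in shRNF11 libraries and 26.2, 27.4 and 28.9 CPM in shControl libraries. These values do not overlap, but the gap is small beside the spread of shControl. IRF3 was 1.13-fold higher (log2 fold change 0.18, SE 0.0646; adjusted p = 0.0285 in edgeR), a call lost without shRNF11 replicate 1 (adjusted p = 0.107), shControl replicate 1 (0.142) or shControl replicate 2 (0.0699), and under upper-quartile factors or library totals.

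IRF9, the DNA-binding subunit of the complex formed after type I interferon, had 6.98, 7.76 and 7.83 CPM in shRNF11 libraries and 5.11, 6.05 and 6.66 CPM in shControl libraries. The highest shControl library came near the lowest shRNF11 library. IRF9 was 1.27-fold higher (log2 fold change 0.34, SE 0.134, edgeR adjusted p = 0.0466). This call lay just inside the threshold and was kept in 5 of 15 alternative analyses. It was lost without shRNF11 replicate 2 (adjusted p = 0.118), shRNF11 replicate 3 (0.110), shControl replicate 1 (0.234) or shControl replicate 2 (0.0749), and also in DESeq2 and limma-voom.

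STAT2, the transactivating partner of IRF9, averaged 18.1 ± 0.290 CPM in shRNF11 and 17.8 ± 0.504 CPM in shControl cells and did not pass. IRF1, a factor induced by interferon gamma, averaged 9.30 ± 1.45 CPM in shRNF11 and 10.5 ± 1.37 CPM in shControl cells. Its log2 fold change of -0.18 did not pass (adjusted p = 0.255). IRF2, which competes with IRF1 for its sites, had a log2 fold change of -0.06. IRF7, the factor that amplifies type I interferon production, had 41 to 64 reads per shRNF11 library and 47 to 84 per shControl library, and its log2 fold change of -0.30 had an SE of 0.301.

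Of the nucleic acid sensors, 2 were tested and 0 passed in edgeR, DESeq2 or limma-voom, where edgeR called 32.1% of all tested genes. At an unadjusted p under 0.05 edgeR gave both, IFIH1 higher and IFI16 lower. IFIH1, which encodes MDA5, a sensor of long double-stranded RNA, had 5.45, 5.21 and 6.25 CPM in shRNF11 libraries and 4.21, 4.82 and 4.34 CPM in shControl libraries. The groups did not overlap, yet the log2 fold change of 0.34 (SE 0.153) did not pass (edgeR adjusted p = 0.0862). IFI16, a sensor of DNA, averaged 18.6 ± 2.04 CPM in shRNF11 and 21.2 ± 1.93 CPM in shControl cells (log2 fold change -0.19, adjusted p = 0.0837); it passed as lower without shRNF11 replicate 1 (adjusted p = 0.0467) and with library totals (0.0170), while its log2 fold change was -0.09 without shRNF11 replicate 3 (adjusted p = 0.465) and -0.11 without shControl replicate 2 (0.421). DDX58, the older symbol of the RNA sensor gene RIGI, had 29, 48 and 50 reads in shRNF11 libraries and 36, 88 and 47 in shControl libraries. Those ranges overlap, and the log2 fold change of -0.40 did not pass (adjusted p = 0.405). DHX58, a regulator of both RNA sensors, had 2 reads over the shRNF11 libraries and 2 over the shControl libraries.

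**Figure D2:**
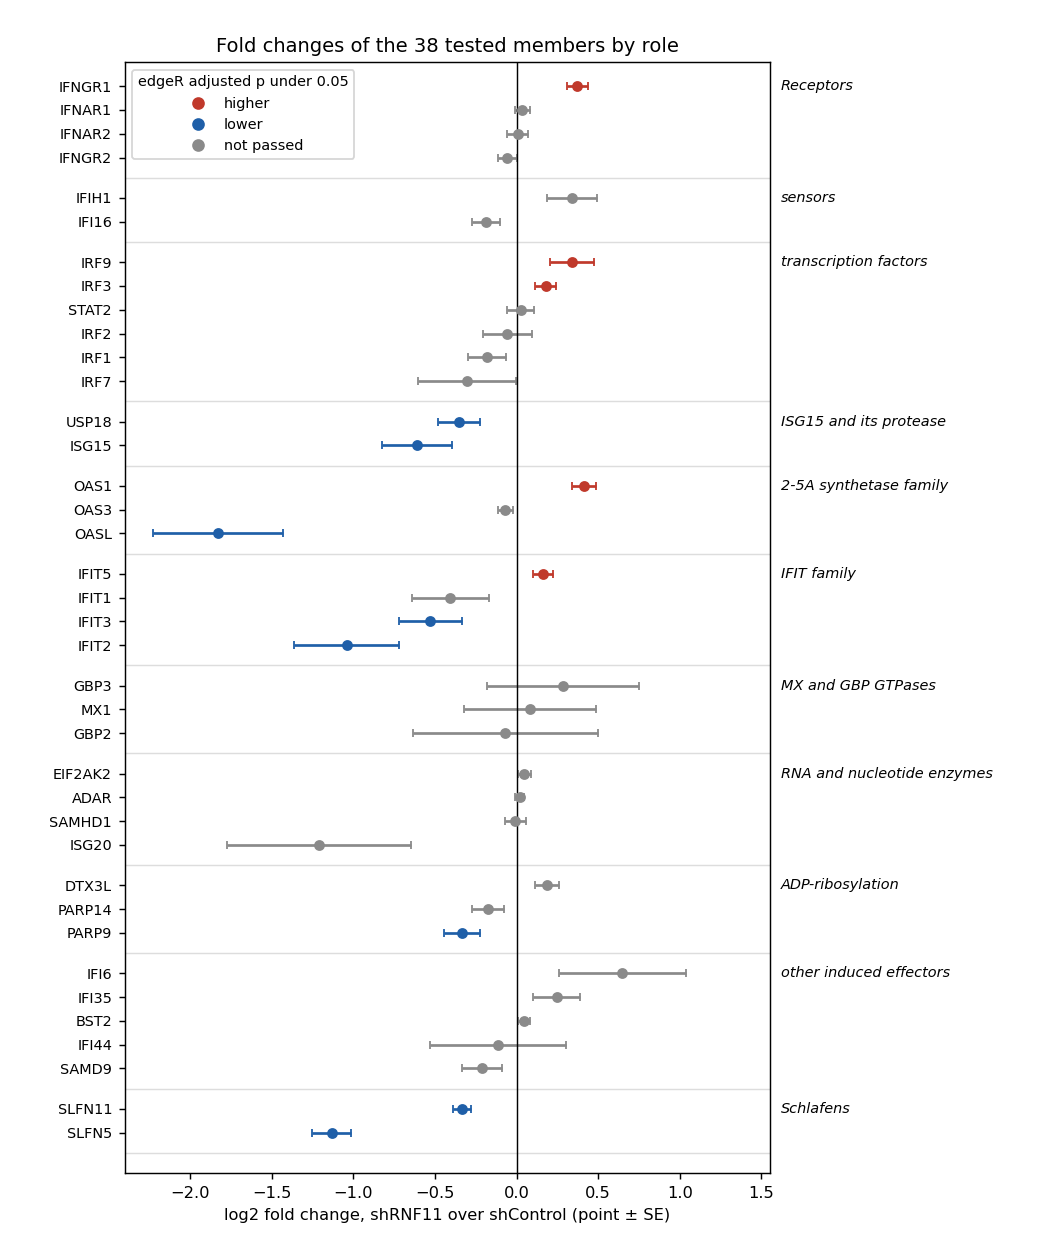
Log2 fold change of shRNF11 over shControl for the 38 tested members (point, with its SE as the bar), arranged by role. The receptors, factors and RNA-acting enzymes lie mostly within 0.4 of zero, while OASL at -1.83 and SLFN5 at -1.13 lie farthest to the left among members that passed.

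ISG15 and the gene of its protease were both lower, where 14.7% of all tested genes were lower. ISG15, a ubiquitin-like protein that is attached to other proteins after interferon, had 2.36, 2.21 and 1.95 CPM in shRNF11 libraries and 3.07, 3.29 and 3.59 CPM in shControl libraries. In reads this was 88, 84 and 74 in shRNF11 and 119, 126 and 139 in shControl, without overlap. ISG15 was 1.53-fold lower (log2 fold change -0.61, SE 0.213, edgeR adjusted p = 0.0234).

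USP18, which removes ISG15 from proteins and also blocks signalling at IFNAR2, had 7.06, 6.26 and 5.94 CPM in shRNF11 libraries and 7.05, 8.35 and 9.20 CPM in shControl libraries. The highest shRNF11 and the lowest shControl library were nearly equal. USP18 was 1.28-fold lower (log2 fold change -0.35, SE 0.131, edgeR adjusted p = 0.0326). Both calls were lost without shRNF11 replicate 2 or 3 or shControl replicate 2 or 3, with adjusted p from 0.0505 to 0.0881 for ISG15 and from 0.0770 to 0.197 for USP18. HERC5, the main ligase that attaches ISG15 in human cells and part of the list of further pathway genes, averaged 18.6 ± 1.12 CPM in shRNF11 and 23.1 ± 1.57 CPM in shControl cells and was 1.24-fold lower (adjusted p = 0.00148).

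The oligoadenylate synthetase family held the member with the largest decrease and a member that rose. OAS1, whose product makes the oligoadenylates that activate RNase L, had 25.01, 24.9 and 25.5 CPM in shRNF11 libraries and 19.3, 19.2 and 18.2 CPM in shControl libraries. The libraries of each group lay close together and the groups were well apart. OAS1 was 1.33-fold higher (log2 fold change 0.41, SE 0.0735, edgeR adjusted p = 1.20e-05).

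OASL, a relative without synthetase activity that promotes RNA sensing, had 10, 28 and 13 reads in shRNF11 libraries and 50, 67 and 69 reads in shControl libraries. In CPM these were 0.268, 0.736 and 0.343 in shRNF11 and 1.29, 1.75 and 1.78 in shControl. No library of one group reached the other, although the shRNF11 libraries differed among themselves. OASL was 3.55-fold lower (log2 fold change -1.83, SE 0.400, edgeR adjusted p = 0.000284), and the size rested on few reads: without shRNF11 replicate 2, the highest of its group, the log2 fold change was -2.38 and without shRNF11 replicate 1 it was -1.57.

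OAS3, the synthetase that binds long RNA, averaged 65.2 ± 3.18 CPM in shRNF11 and 68.3 ± 2.08 CPM in shControl cells and did not pass (log2 fold change -0.07, adjusted p = 0.274). With libraries scaled by totals alone it passed as lower (log2 fold change -0.13, adjusted p = 0.0237). OAS2 had 3 reads over the shRNF11 libraries and 10 over the shControl libraries and could not be tested.

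In the IFIT family, whose products bind viral RNA, IFIT2 and IFIT3 were lower, IFIT5 was higher and IFIT1 did not pass. That is 50% lower and 25% higher, against 14.7% and 17.4% of all tested genes. IFIT2 had 20, 60 and 34 reads in shRNF11 libraries and 100, 68 and 72 in shControl libraries. In CPM these were 0.537, 1.58 and 0.897 in shRNF11 and 2.58, 1.77 and 1.86 in shControl, with shRNF11 replicate 2 close under the lowest shControl library. IFIT2 was 2.06-fold lower (log2 fold change -1.04, SE 0.322; edgeR, adjusted p = 0.00995). Significance was lost without shRNF11 replicate 1 (log2 fold change -0.74, adjusted p = 0.0854) or without shControl replicate 1 (-0.85, adjusted p = 0.0975).

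IFIT3, which stabilises IFIT1 in a complex, had 2.84, 3.76 and 3.75 CPM in shRNF11 libraries and 5.99, 5.97 and 2.97 CPM in shControl libraries. The third shControl library lay inside the shRNF11 range. IFIT3 was 1.44-fold lower (log2 fold change -0.53, SE 0.194, edgeR adjusted p = 0.0316). Without shControl replicate 3 the log2 fold change was -0.79 (adjusted p = 0.000686). The call was lost without shRNF11 replicate 1 or 2 or shControl replicate 1 or 2, with adjusted p from 0.0565 to 0.233, and in DESeq2 and limma-voom.

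IFIT1, which recognises viral RNA caps, had 62, 79 and 88 reads in shRNF11 libraries and 102, 116 and 92 in shControl libraries. The groups did not overlap in CPM, but the log2 fold change of -0.41 (SE 0.235) did not pass (adjusted p = 0.193). IFIT5 went the other way, with 34.0, 35.3 and 34.7 CPM in shRNF11 libraries and 31.9, 32.3 and 28.8 CPM in shControl libraries. It was 1.12-fold higher (log2 fold change 0.16, SE 0.0615; edgeR, adjusted p = 0.0393). For IFIT5, significance was lost without shRNF11 replicate 2 (adjusted p = 0.111), shRNF11 replicate 3 (0.0639), shControl replicate 1 (0.0523) or shControl replicate 3 (0.243), and in DESeq2. IFIT genes resemble one another, so reads may be split among them.

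The antiviral GTPases had few reads, and of 3 tested 0 passed in edgeR, DESeq2 or limma-voom, with or without adjustment. After adjustment edgeR called 32.1% of all tested genes. MX1, which traps viral nucleocapsids, had 22, 58 and 34 reads in shRNF11 libraries and 18, 46 and 46 in shControl libraries, with a log2 fold change of 0.08 (SE 0.404). The sign for MX1 turned negative without shRNF11 replicate 2 or shControl replicate 1. MX2 had 3, 12 and 3 reads in shRNF11 libraries (18 together) and 2, 2 and 2 in shControl libraries (6 together). These do not overlap, but were too few to test, and 12 of the 18 came from shRNF11 replicate 2. The guanylate-binding protein genes GBP2 and GBP3, typical targets of interferon gamma, had 6 to 36 reads per library, and their log2 fold changes of -0.07 and 0.28 had SEs of 0.564 and 0.463.

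Of 4 tested enzymes that act on RNA and nucleotides, 0 passed in edgeR, DESeq2 or limma-voom, where edgeR called 32.1% of all tested genes. ISG20 alone was under 0.05 in edgeR and DESeq2 without adjustment. ADAR, which edits adenosine to inosine in double-stranded RNA, averaged 472.7 ± 4.53 CPM in shRNF11 and 466.7 ± 6.82 CPM in shControl cells (log2 fold change 0.02, SE 0.0257). EIF2AK2, the kinase PKR that halts translation on double-stranded RNA, averaged 133.6 ± 9.77 CPM in shRNF11 and 129.2 ± 4.95 CPM in shControl cells (log2 fold change 0.05, SE 0.0400). SAMHD1, which breaks down deoxynucleotides, averaged 32.4 ± 2.05 CPM in shRNF11 and 32.6 ± 2.04 CPM in shControl cells (log2 fold change -0.0074, SE 0.0635). ISG20, an exonuclease of single-stranded RNA, had 10, 8 and 8 reads in shRNF11 libraries and 11, 32 and 19 in shControl libraries, and its log2 fold change of -1.21 (SE 0.563) did not pass (adjusted p = 0.0950). RSAD2, which encodes viperin, had 1 read over the shRNF11 libraries and 2 over the shControl libraries.

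Of the 3 ADP-ribosylation genes, PARP9 was lower (33.3%, against 14.7% of all tested genes), and DTX3L and PARP14 did not pass. PARP9 and DTX3L encode partners in an enzyme complex, and in the human genome the genes lie head to head with a shared promoter region. PARP9 had 9.20, 8.91 and 8.02 CPM in shRNF11 libraries and 11.3, 10.7 and 10.9 CPM in shControl libraries. All shRNF11 libraries were below all shControl libraries. PARP9 was 1.26-fold lower (log2 fold change -0.33, SE 0.110, edgeR adjusted p = 0.0160), a call lost without shRNF11 replicate 3 (adjusted p = 0.0836) or shControl replicate 1 (0.0608).

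DTX3L had 23.1, 22.1 and 24.6 CPM in shRNF11 libraries and 21.2, 20.2 and 19.97 CPM in shControl libraries, all shRNF11 libraries being above. Its log2 fold change of 0.19 (SE 0.0746) lay just outside the threshold (edgeR adjusted p = 0.0509), and it passed as higher with DESeq2-style factors and without shRNF11 replicate 2 (adjusted p = 0.0379). PARP14, a mono-ADP-ribosyltransferase, had 449, 449 and 465 reads in shRNF11 libraries and 517, 517 and 539 in shControl libraries. All shRNF11 libraries were below, and it did not pass (log2 fold change -0.17, edgeR adjusted p = 0.167), although with library totals it passed as lower (-0.24, adjusted p = 0.0487). Whether counting used strand is not given in the sources used here, so reads where PARP9 and DTX3L overlap could not be assigned to either.

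Of the 8 remaining induced effectors, 5 were tested and 0 passed in edgeR, DESeq2 or limma-voom, with or without adjustment. Over all tested genes 32.1% were called in edgeR after adjustment. BST2, the tetherin that holds budding virus at the membrane, averaged 114.9 ± 3.31 CPM in shRNF11 and 111.5 ± 2.64 CPM in shControl cells (log2 fold change 0.04, SE 0.0377). SAMD9, an inhibitor of poxviruses, averaged 9.04 ± 0.937 CPM in shRNF11 and 10.5 ± 2.13 CPM in shControl cells. IFI44 had 19 to 33 reads per shRNF11 library and 26 to 38 per shControl library, with a log2 fold change of -0.11 (SE 0.415).

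IFI35 and IFI6 depended on single libraries. IFI35, a leucine zipper protein, had 8.93, 7.41 and 5.28 CPM in shRNF11 libraries and 5.86, 6.21 and 6.17 CPM in shControl libraries, and IFI6, a mitochondrial survival protein, had 76, 59 and 23 reads in shRNF11 libraries and 19, 52 and 32 in shControl libraries. In both genes shRNF11 replicate 3 was the lowest of its group. With all libraries neither passed (log2 fold change 0.24 for IFI35 and 0.65 for IFI6), and without shRNF11 replicate 3 both passed as higher, at 0.43 (adjusted p = 0.0172) and 1.01 (adjusted p = 0.0359). Without shRNF11 replicate 1 the log2 fold changes were 0.06 for IFI35 (adjusted p = 0.806) and 0.28 for IFI6 (adjusted p = 0.697). That of IFI6 was 0.36 without shControl replicate 1 and 1.08 without shControl replicate 2, neither of which passed. IFI27 had 1 read over the shRNF11 libraries and 8 over the shControl libraries, XAF1 had 12 over shRNF11 and 6 over shControl libraries, and RTP4 had 0 over shRNF11 and 1 over shControl libraries.

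Both Schlafen genes on the list were lower, where 14.7% of all tested genes were lower. SLFN5, an interferon-induced nuclear Schlafen, had 219, 197 and 275 reads in shRNF11 libraries and 525, 493 and 533 in shControl libraries. In CPM these were 5.88, 5.18 and 7.25 in shRNF11 and 13.6, 12.9 and 13.8 in shControl. The highest shRNF11 library was far below the lowest shControl library. SLFN5 was 2.19-fold lower (log2 fold change -1.13, SE 0.118, edgeR adjusted p = 4.59e-11), and the log2 fold change lay between -1.27 and -1.03 in all 15 alternative analyses, each of which called it lower.

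SLFN11, which cleaves transfer RNA and blocks replication in cells with damaged DNA, had 34.3, 34.3 and 34.8 CPM in shRNF11 libraries and 43.4, 42.1 and 44.8 CPM in shControl libraries. The groups were well apart and narrow. SLFN11 was 1.26-fold lower (log2 fold change -0.33, SE 0.0558, edgeR adjusted p = 4.14e-06). Other Schlafens did not pass: SLFN12, which cleaves a leucine transfer RNA, averaged 24.9 CPM in shRNF11 and 22.9 CPM in shControl cells (log2 fold change 0.12), SLFN13 had a log2 fold change of -0.21 (SE 0.368), and SLFN12L, SLFN14 and SLFNL1 had too few reads to test. Schlafen genes are similar in sequence, and reads may be shared between them.

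**Figure D3:**
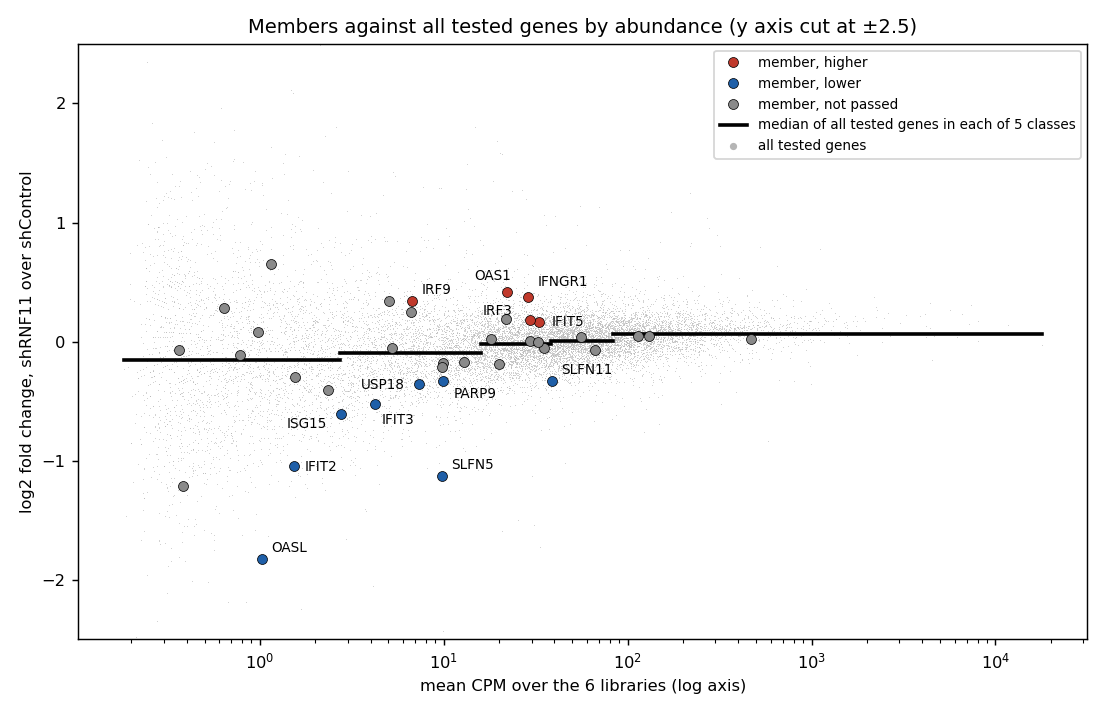
Log2 fold change against mean CPM (log axis) for all 13489 tested genes in grey, with the 38 members as large points and the median of each of 5 expression classes as a black line. The grey median runs from -0.157 in the lowest class to 0.0647 in the highest, and the lower members lie mostly on the left, at low expression.

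Fold changes of all tested genes followed expression, and the members were spread unevenly over it. In the class of lowest expression, 10 members had a median log2 fold change of -0.21, against -0.16 for all tested genes there. Of these, 2 were lower and 0 higher, where 5.89% of all tested genes were lower and 3.30% higher. In the next class, 12 members had a median of -0.20 against -0.09, with 5 lower and 1 higher, where 18.5% of all tested genes were lower and 6.30% higher. In the middle class, 10 members had a median of 0.09 against -0.02, with 4 higher and 0 lower, where 13.4% of all tested genes were higher and 18.8% lower. Of the 6 members in the 2 highest classes, SLFN11 was lower and the others did not pass. In the lower of these 2 classes 21.2% of all tested genes were higher and 17.6% lower. In the highest class 42.8% were higher and 12.9% lower.

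Ratios of reads within a library do not depend on how libraries are scaled, and 8 pairs of members were compared in this way after their values had been seen. The log2 ratio of PARP9 to DTX3L averaged -1.42 ± 0.171 in shRNF11 and -0.90 ± 0.0247 in shControl libraries (SD, n = 3 each), a difference of -0.52. The log2 ratio of IFNGR1 to IFNGR2 averaged -0.08 ± 0.0992 in shRNF11 and -0.51 ± 0.0732 in shControl libraries, a difference of 0.43. That of SLFN5 to SLFN11 averaged -2.51 ± 0.234 in shRNF11 and -1.70 ± 0.0169 in shControl libraries, so that SLFN5 fell further than SLFN11 in every shRNF11 library.

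Within the oligoadenylate synthetases, the log2 ratio of OAS1 to OAS3 was higher by 0.48 in shRNF11 libraries and that of OASL to OAS1 differed by -2.38. The ratio of USP18 to ISG15 differed by 0.26 and that of IRF9 to STAT2 by 0.32. These 7 ratios did not overlap between the groups, while that of IFNAR1 to IFNAR2 did (difference 0.03). Over all 703 pairs of the tested members, 43.2% had ratios that did not overlap, and the pairs shown were picked from members whose changes were known. In an exact 2-sided permutation test the 7 pairs reached p = 0.100, the smallest that 3 against 3 libraries allow (0.114 after Benjamini-Hochberg adjustment over the 8 pairs), and IFNAR1 to IFNAR2 gave 0.700, so none could pass 0.05.

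**Figure D4:**
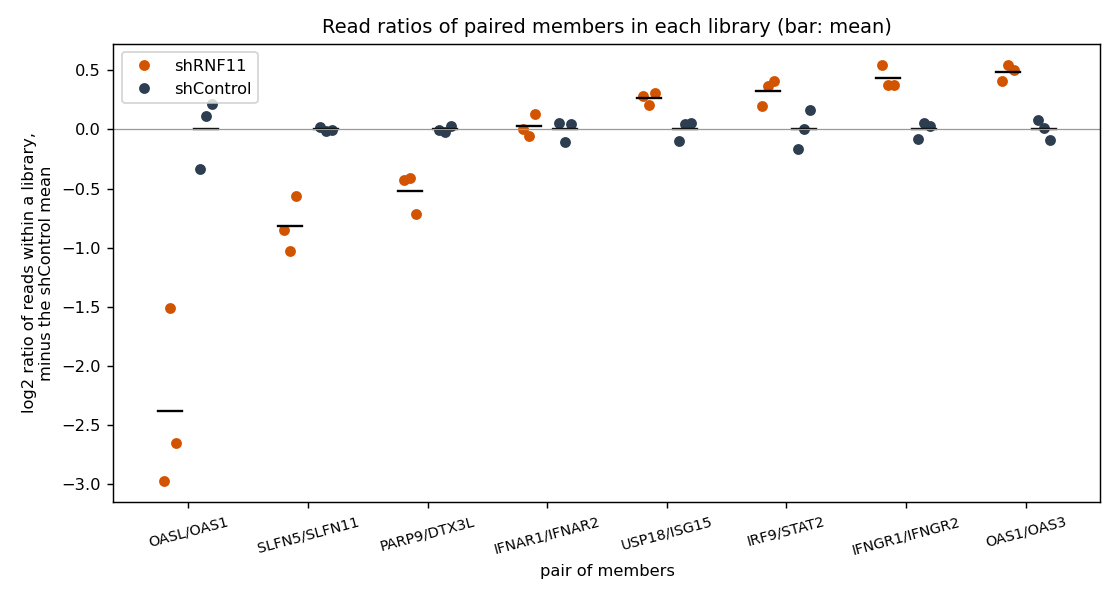
Log2 ratio of the reads of paired members in each library, minus the shControl mean of that pair, with shRNF11 points left of shControl points and a bar at each mean. The ratio of IFNAR1 to IFNAR2 overlaps between the groups and the other 7 do not, with OASL to OAS1 lowest at -2.38 and OAS1 to OAS3 highest at 0.48.

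Further genes of the pathway, from a list outside the members, were called about as often as all tested genes. Of 92 genes, 74 were listed and 52 tested, of which 7 were higher, 10 lower and 35 did not pass. That is 32.7% called, against 32.1% of all tested genes, with a median log2 fold change of -0.0094. The receptor kinase genes JAK1 and TYK2 did not pass, with log2 fold changes of 0.03 for JAK1 and -0.08 for TYK2.

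Among receptors and signalling genes 0 of 8 tested were higher in edgeR, against 17.4% of all tested genes. The count higher was also 0 without adjustment and in DESeq2 and limma-voom. In edgeR 3 (37.5%) were lower, against 14.7% of all tested genes. SOCS3, a feedback inhibitor of cytokine receptors, averaged 35.3 ± 1.69 CPM in shRNF11 and 52.4 ± 1.00 CPM in shControl cells and was 1.48-fold lower (edgeR adjusted p = 2.72e-12). IL10RB and IFNLR1, the chains of the interferon lambda receptor, were 1.31-fold (adjusted p = 0.00502) and 1.52-fold lower (adjusted p = 0.0498). The IFNLR1 call was kept in 4 of 14 alternative analyses and was lost in limma-voom (adjusted p = 0.0744) and without any 1 library other than shControl replicate 1 (adjusted p up to 0.259). Among the sensing genes, 1 of 8 tested was higher and 1 lower (12.5% each, against 17.4% and 14.7% of all tested genes): TRIM25, a ligase that promotes RIG-I signalling, was 1.20-fold higher at 240.4 ± 3.06 CPM in shRNF11 against 200.6 ± 6.31 CPM in shControl cells, and MAVS, the mitochondrial adaptor of RNA sensors, was 1.14-fold lower (adjusted p = 0.000297).

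Of 33 further interferon-stimulated genes tested, 6 were higher and 6 lower, which is 18.2% each, near the 17.4% and 14.7% of all tested genes. IFI30, a lysosomal thiol reductase, averaged 78.2 ± 1.26 CPM in shRNF11 and 56.6 ± 0.186 CPM in shControl cells and was 1.38-fold higher (edgeR adjusted p = 3.51e-12). LGALS3BP, a secreted galectin-binding protein, was 1.26-fold higher (adjusted p = 6.46e-11), PARP12, an ADP-ribosyltransferase, 1.24-fold (adjusted p = 0.000142), and the membrane proteins IFITM2 and IFITM3, which block viral entry, 1.26-fold and 1.17-fold. IFITM2 and IFITM3 are close copies, and their reads may be split. On the lower side besides HERC5, TENT5A, a poly(A) polymerase, was 1.19-fold lower, the RNA helicase gene MOV10 1.16-fold and the aminopeptidase gene LAP3 1.11-fold (adjusted p at most 0.00291). The LAP3 call was lost without shControl replicate 1 (adjusted p = 0.0625). DDX60 had a larger decrease, 1.49-fold (edgeR adjusted p = 0.0176), without overlap of the groups, a call kept in 11 of 14 alternative analyses. DDX60L was 1.21-fold lower (adjusted p = 0.0408, kept in 9 of 15) and APOL2 1.29-fold higher (adjusted p = 0.00813, kept in 12 of 15), both with overlapping libraries.

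**Figure D5:**
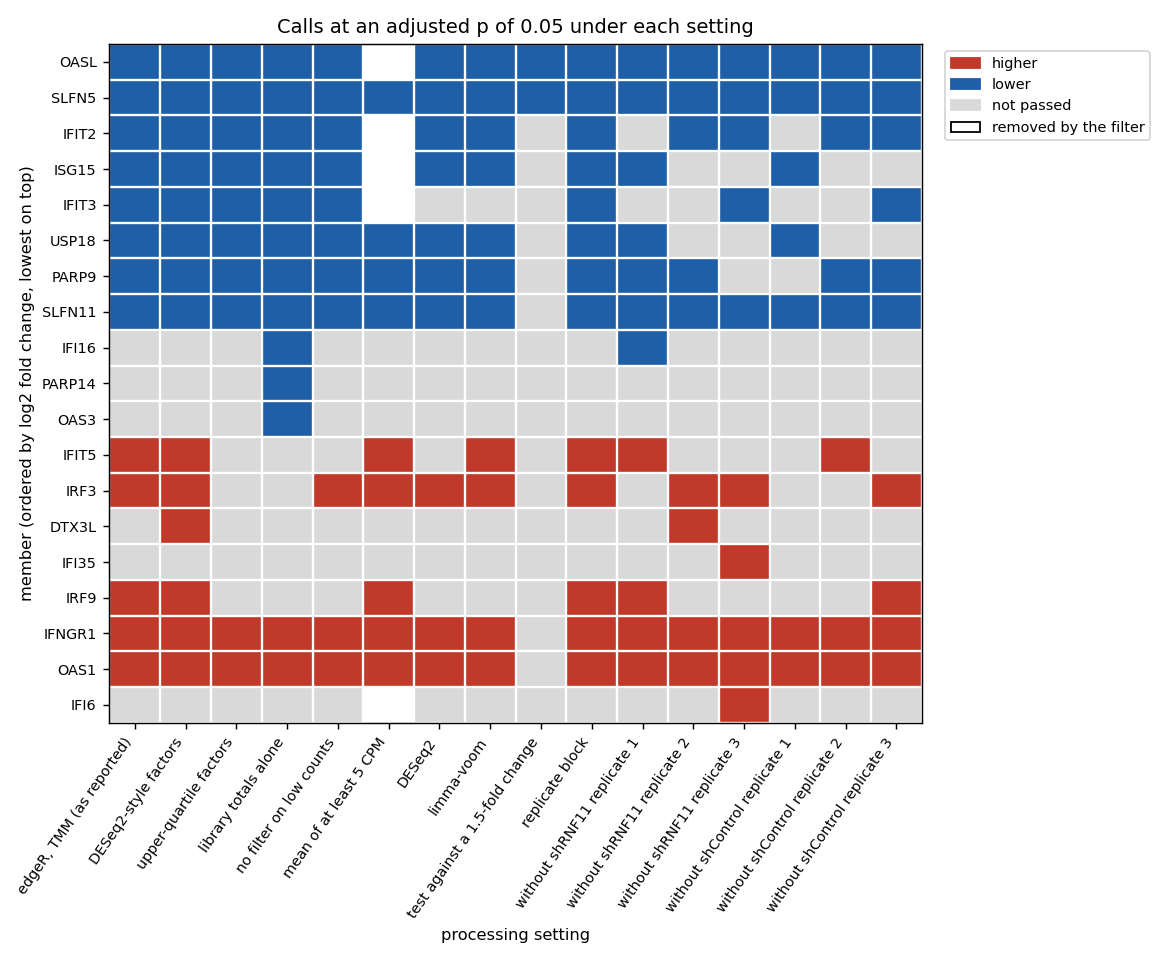
Calls for the 19 members that passed in at least 1 analysis (rows, lowest log2 fold change on top) in the reported analysis and the 15 alternatives (columns), with red for higher, blue for lower, grey for not passed and white for removed by the filter. OASL and SLFN5 are blue wherever they were tested, and IFNGR1, OAS1 and SLFN11 lose their call against a 1.5-fold change and in no other column.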

How the data were processed

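The authors deposited raw read counts per gene for the 6 libraries, not normalized. The submitters' processing notes name fastp, HISAT2 and HTSeq, with no versions or roles. The labels' protocols give TRIzol for RNA extraction and the VAHTS Universal V10 kit for the libraries. For the genome build, the annotation and the strand setting the entry is "not given in the sources used here". Groups and replicate numbers come from the sample titles.

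Genes were kept by filterByExpr of edgeR 4.0.16 (minimum count 10; R 4.3.3), which left 13489 of 20499, and TMM factors set the scale. The quasi-likelihood F-test compared the groups with no covariate, and p-values were adjusted by Benjamini-Hochberg across every gene tested (threshold 0.05). An SE is the size of the log2 fold change over the root of F. Values are mean ± SD of 3 libraries. The common coefficient of biological variation was 4.82%. Recovery of known changes was tested on simulated counts with 200 changed genes, each with more than 200 reads over the 6 libraries. In the data 4336 genes were called, so the simulation does not bear on the scaling or on members with fewer reads. Libraries of the same group differed by a chi-square of 3.79 to 5.87 per gene, above sampling noise, so none is a duplicate.

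The members and lists were chosen with earlier results of these data known, and no list was tested as a set. Every member is accounted for: those that passed, or whose groups did not overlap, are given by library. Of the further pathway genes, those with the 12 smallest p-values are named, besides some named for their role or to complete the calls of a group after their values were seen. Alternatives were other scaling factors and filters, DESeq2 1.42.0, limma-voom 3.58.1, testing against a fold change of 1.5, blocking on replicate number, and leaving out each library. Sequences of these genes were not used here.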

Additional observations from a re-analysis of the deposited data

How the results depend on the processing

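Members higher and lower were 2 and 8 with upper-quartile factors, 2 and 11 with library totals, 3 and 8 with no filter, 5 and 4 at a mean of at least 5 CPM, 3 and 7 in DESeq2 and 0 and 2 against a 1.5-fold change. Leaving out 1 library gave 2 to 5 higher and 5 to 7 lower members. Of the further pathway genes, leaving out 1 library gave 6 to 10 higher and 7 to 10 lower, library totals gave 7 and 15, and the 1.5-fold test gave 0 and 0. The median of the members was -0.12 with library totals, -0.0011 at a mean of at least 5 CPM, and -0.05 to -0.03 without 1 library. The cause of these shifts was not tested, except that fewer members (26 of 38) remain under the 5 CPM filter. With library totals the log2 fold changes of all tested genes moved by a median of -0.0643 from the reported analysis.

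With the replicate number as a block the counts were 5 and 8, and all 13 calls were kept. Same-numbered libraries of the 2 groups did not deviate together (correlations -0.0181, -0.0070 and -0.0367), so the numbers are not taken as pairs.

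Of the 13 calls, 2 (OASL and SLFN5) were kept in every alternative that tested them, and none changed sign. None of the 7 untested members passed without a filter. Values that changed sign belonged to 11 members without a call. With library totals these were ADAR (-0.0460), BST2 (-0.0200), EIF2AK2 (-0.0161), IFNAR1 (-0.0283), IFNAR2 (-0.0586) and STAT2 (-0.0398), with upper-quartile factors ADAR (-0.0012) and IFNAR2 (-0.0133), and at a mean of 5 CPM IFNAR2 (-0.0073). Leaving out 1 library moved EIF2AK2 between -0.0022 and 0.10, GBP2 between -0.56 and 0.29, IFI44 between -0.24 and 0.11, IFNAR2 between -0.0228 and 0.0653, IFNGR2 between -0.10 and 0.0023, MX1 between -0.35 and 0.35, and SAMHD1 between -0.0581 and 0.0365 on the log2 scale. Read depth limits the 10 members in the class of lowest expression, whose standard errors ran from 0.235 to 0.564.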

Other observations

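Genes of antigen presentation that interferon gamma can induce were outside the lists above and were picked out from the table's own Reactome term for interferon signalling, after their values were seen. Of 137 genes with that term that are not members, 117 were tested, with 36 higher, 13 lower and 68 that did not pass. The called share was 41.9%, against 32.1% of all tested genes. By direction, 30.8% were higher, against 17.4% of all tested genes, and 11.1% lower, against 14.7%. In the highest of 5 classes of expression, 42.8% of all tested genes were higher and 12.9% lower. How the 117 genes spread over the classes was not counted.

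CIITA, the master activator of MHC class II genes, averaged 2.73 ± 0.0800 CPM in shRNF11 and 1.42 ± 0.0269 CPM in shControl cells (SD, n = 3 each) and was 1.92-fold higher (edgeR adjusted p = 0.00277). The class II chain gene HLA-DRA averaged 5.82 ± 1.10 CPM in shRNF11 and 4.13 ± 0.656 CPM in shControl cells, 1.41-fold higher (adjusted p = 0.0154) with overlapping libraries. HLA-DRB1 averaged 1.98 ± 0.306 CPM in shRNF11 and 0.700 ± 0.122 CPM in shControl cells (adjusted p = 0.000303), a gene with close copies. The leukocyte gene PTPRC had no row. CD68 was 1.13-fold lower in shRNF11 cells (adjusted p = 0.00857), and CD14 averaged 0.301 ± 0.192 CPM in shRNF11 and 0.311 ± 0.0918 CPM in shControl cells without passing the test.

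TRIM29, a ligase of innate immune signalling that carries the same term, averaged 405.0 ± 11.5 CPM in shRNF11 and 232.9 ± 6.61 CPM in shControl cells and was 1.74-fold higher (edgeR adjusted p = 4.75e-28).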
